A study of Saccharomyces cerevisiae with 2 samples.

Results

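The 8 genes INO80, ARP5, ARP8, SWR1, ARP6, ARP4, RVB1 and RVB2, which encode subunits of the chromatin remodelers INO80 and SWR1, were examined among 6002 nuclear protein-coding genes of Saccharomyces cerevisiae. They were taken by name from the R64 gene annotation, and all 8 were found. For each gene, open chromatin was read in 3 windows: the 500 bp upstream of the coding start (the promoter window), the coding region, and the 500 bp after the coding end (the downstream window).

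Open chromatin was mapped as DNase I hypersensitive sites (DHS), stretches that DNase I cuts readily in isolated nuclei, together with footprints, short stretches inside a DHS that are protected from cutting. The 2 libraries represent WT cells and cells with G170D, a temperature-sensitive allele of the chaperone Hsp90, and both are labelled as BY4741. Both were grown in YPD, a rich medium, at 37 °C for 6 h. WT cultures started at an OD of 0.25 and G170D cultures at 0.37, and both reached 0.65 to 0.7, so growth during the 6 h and genotype cannot be told apart. The labels do not say which of the Hsp90 genes, HSC82 or HSP82, carries the allele, nor how it was placed in the strain.

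INO80 and SWR1 are large complexes built around an ATPase of the Snf2 family. INO80 moves and spaces nucleosomes, also next to promoters, and is named for the inositol requirement of its mutants. SWR1 replaces histone H2A in nucleosomes with the variant H2A.Z, the product of HTZ1. Both complexes contain the AAA+ ATPases Rvb1 and Rvb2, which with Tah1 and Pih1 also form R2TP, a complex that works with Hsp90 in assembling other protein complexes.

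With 1 library per strain there was no replicate error and no test, and each value describes these libraries. The WT list held 3155 DHS and 45019 footprints, and the G170D list 2875 DHS and 33585 footprints. Read depth is unknown for both lists, so a DHS missing from a list can lie just under its threshold. In a population of cells, cutting in fewer cells and weaker cutting in all cells cannot be told apart. The lists went against the labelled background at LEU2, which BY4741 is known to lack: its coding region of 1095 bp was covered over 1095 bp in both lists, and that of MET17, also known to be lacking, over 90 bp (WT) and 67 bp (G170D), while the coding regions of URA3 and HIS3 held 0 bp. No DHS of the 8 genes lies at those loci.

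Of the 8 genes, 4 had a listed DHS in at least one window. INO80, ARP5 and SWR1 had one in both strains, as did 51.8% of all genes, and RVB2 in WT alone, as did 8.96%. ARP8, ARP6, ARP4 and RVB1 had none in any window in either strain, as did 33.6% of all genes. Where the strains differed in the promoter windows and coding regions, the longer DHS and the larger number of footprints were in WT at these 4 genes. Over all genes WT was also the longer more often. At least 100 bp less DHS in G170D was found in 557 promoter windows and 1093 coding regions, and at least 100 bp more in 347 and 419. In the downstream window of INO80, G170D held 220 bp more than WT. The largest differences were at the INO80 coding region, where WT held 1105 bp, and at the RVB2 promoter, where it held 434 bp. G170D held 0 bp in each.

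**Figure D1:**
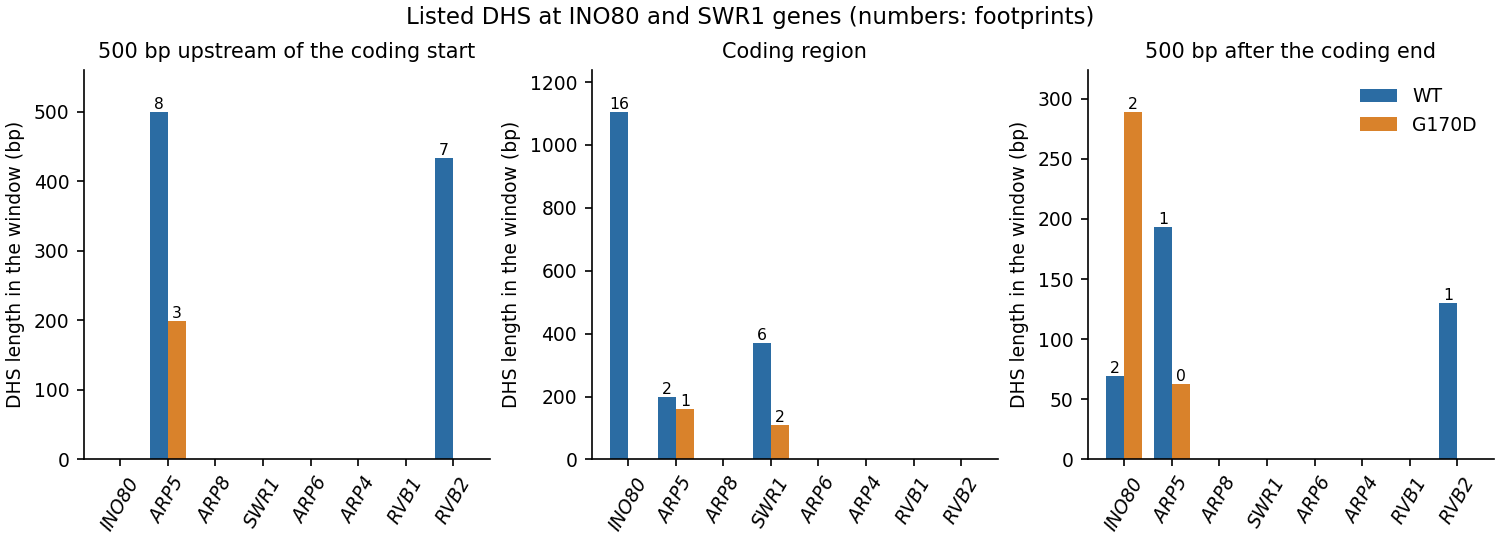
Bars show the length in bp covered by listed DHS in the promoter window, the coding region and the downstream window of each of the 8 genes, in WT (blue) and G170D (orange), and numbers above bars give the footprints. INO80 held 1105 bp in its coding region in WT and none in G170D, RVB2 held 434 bp in its promoter window in WT and none in G170D, and ARP8, ARP6, ARP4 and RVB1 held none anywhere.

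INO80 (YGL150C, chromosome VII, 221104 to 225573, transcribed towards lower coordinates) encodes the ATPase of the INO80 complex. Its promoter window, of which 304 bp are the coding region of YGL149W, held no DHS in either strain. In WT the coding region held a pair of DHS near its end, VII:221699-222580 with 11 footprints and VII:221240-221462 with 5. The first was 882 bp wide and lay 2993 to 3874 bp after the coding start, and the second was 223 bp wide and ended 136 bp before the coding end. Neither had a counterpart in G170D, whose closest DHS lay 807 bp and 348 bp away.

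The G170D list held no DHS from VII:220893 to VII:230145, a stretch of 9253 bp with INO80 in it. The WT list had 1379 bp of DHS and 22 footprints in the same stretch, and 3 of the 4 WT regions touching it had no counterpart. Among the 8 genes such stretches ranged from 2409 bp (ARP5) to 18605 bp (RVB2). Genes without DHS in their windows, such as ARP8 with 9443 bp, lie in one by definition. The INO80 coding difference needs at least 1105 bp of WT DHS in the coding region, which 199 of 6002 genes had. In 16 of these 199 (8.04%), INO80 included, the coding region had at least 1105 bp less DHS in G170D. Among the 240 coding regions of at least 4000 bp there were 8 such genes (3.33%).

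Beyond the end of INO80 the order was reversed. Its downstream window reaches into the convergent gene NUT1, which encodes a subunit of Mediator, and was covered over 69 bp in WT but 289 bp in G170D, with 2 footprints in each. The difference of 220 bp was 20 bp in a window of 300 bp and 631 bp in a window of 1000 bp. In G170D this was the edge of a DHS of 2639 bp over NUT1 (VII:218254-220892, 44 footprints). In WT the DHS over NUT1 spanned 217904 to 220192 and was followed by a separate region of 69 bp, VII:220834-220902. The G170D region thus ended 700 bp closer to INO80 than the main WT region did, and 10 bp further away than the small one. A downstream window with at least 220 bp more DHS in G170D was found in 138 of 6002 genes. Only windows with at least 220 bp of G170D DHS can show this, and these were not counted. A downstream DHS of any length was listed in both strains in 2072 genes and in G170D only in 284.

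ARP5 (YNL059C, chromosome XIV, 512668 to 514935, also on the Crick strand) encodes an actin-related protein found in the INO80 complex alone of the remodelers. Its promoter window was covered over all 500 bp in WT, with 8 footprints, and over 199 bp in G170D, with 3 footprints. The WT region XIV:514895-515588 was 694 bp wide, began 653 bp upstream of the coding start and took in the first 41 bp of the coding region. In G170D the region XIV:515237-515587 was 351 bp wide and ran from 652 to 302 bp upstream. The outer edge thus differed by 1 bp between the lists, and the edge facing ARP5 lay 342 bp further from the gene in G170D.

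Every footprint lay inside a DHS of its own list, so G170D could list none between ARP5 and the DHS edge facing it. Of the 8 WT footprints in the ARP5 promoter window, 6 lay within 288 bp of the coding start, in length covered in WT alone. The strongest of these 6 by score, 41 to 23 bp upstream, had a score of -6.47 and place 7688 in the WT list. The other two, at 416 to 404 and 437 to 425 bp upstream, lay in the shared length, and both were overlapped by a G170D footprint, at 415 to 407 and 437 to 429 bp. The first of them was the strongest footprint of all 8 genes in each strain, with a score of -6.97 in WT and -5.43 in G170D.

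At the other end of ARP5 the lists were close. A region across the coding end spanned XIV:512649-512826 in WT and XIV:512605-512827 in G170D, and gave 200 bp and 160 bp of coding region, the WT value including the 41 bp at the coding start. The downstream window, which reaches into NOP2, a gene for an rRNA methyltransferase of ribosome synthesis, had a WT length of 193 bp and a G170D length of 63 bp. A narrow WT region of 190 bp, XIV:512152-512341, accounted for the larger WT value. In a downstream window of 300 bp, which leaves that region out, G170D held 44.0 bp more than WT.

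ARP8 (YOR141C, XV:589942-592587) encodes the third actin-related protein of INO80, which with Arp4 and actin binds the ATPase and takes part in its contact with nucleosomal DNA. None of its windows held a DHS or a footprint. The DHS closest to the coding start lay 1410 bp upstream in WT and 1101 bp upstream in G170D, over the end of LSC1 and the tRNA gene SUF5. It was 913 bp wide with 28 footprints in WT and 1226 bp wide with 26 footprints in G170D.

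**Figure D2:**
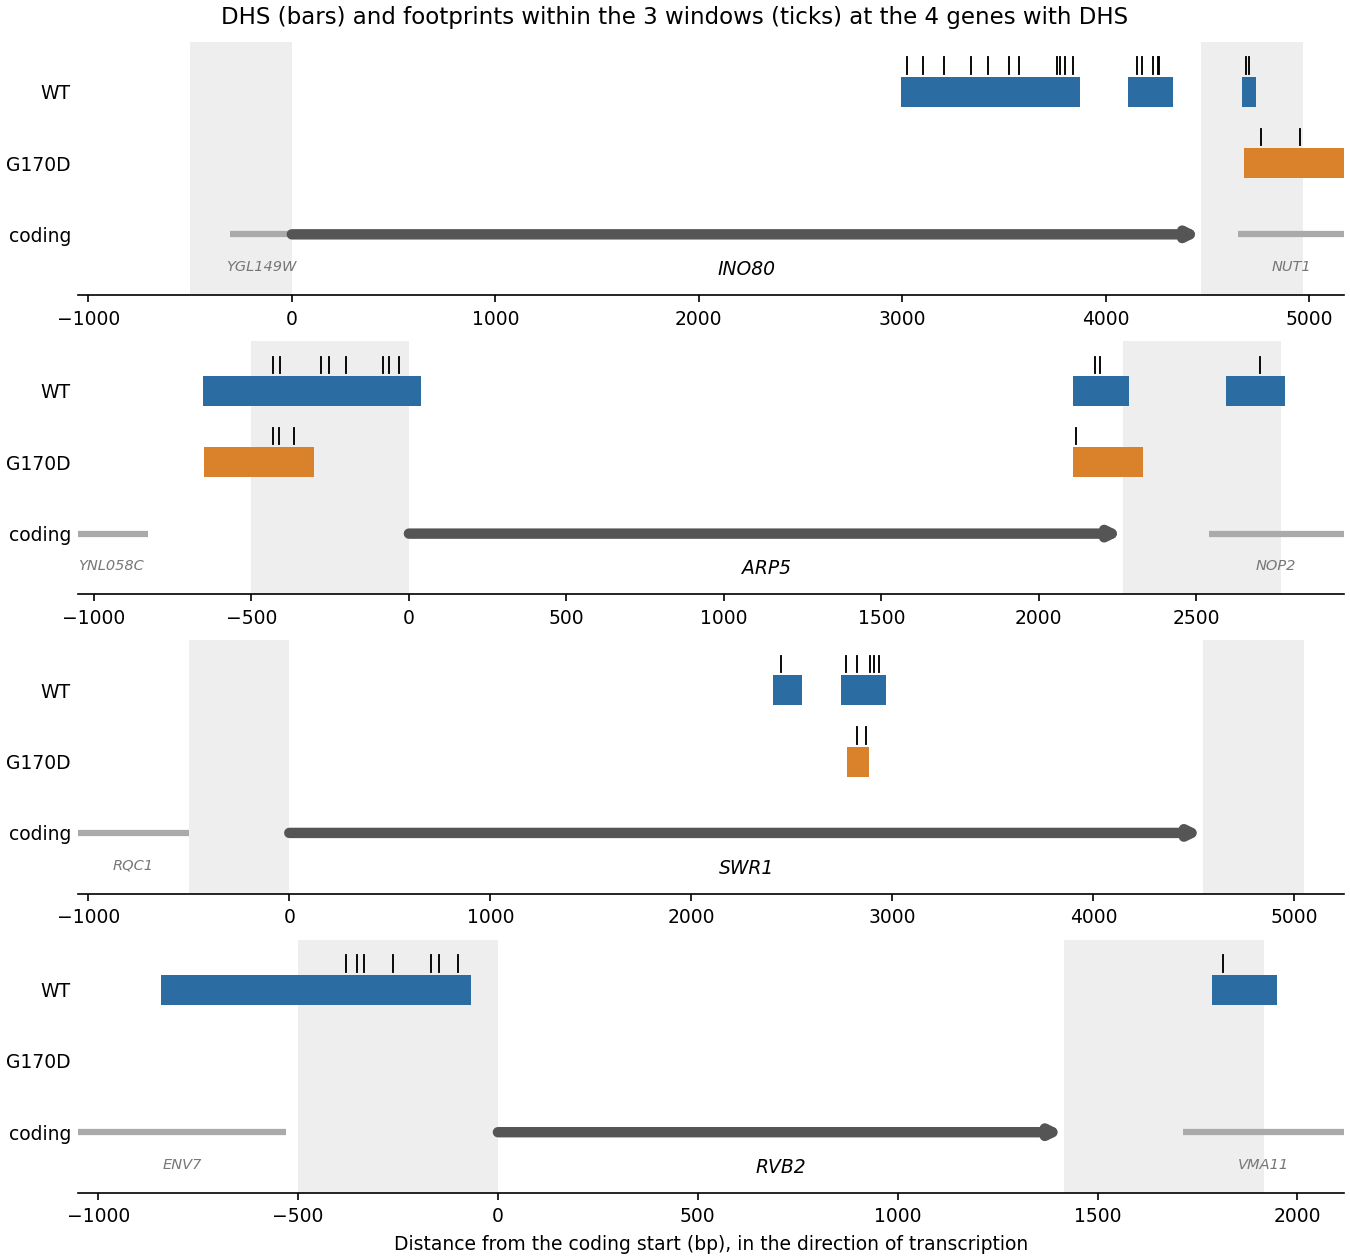
DHS (bars) of WT (blue) and G170D (orange) and footprints within the 3 windows (black ticks) at INO80, ARP5, SWR1 and RVB2, by distance in bp from the coding start in the direction of transcription. The dark arrow is the coding region, grey lines are neighbouring coding regions, and grey shading marks the promoter and downstream windows. The ARP5 promoter region keeps its outer edge at 653 and 652 bp upstream and is 694 bp wide in WT and 351 bp wide in G170D, and the 882-bp region in INO80 and the 778-bp region upstream of RVB2 appear in WT alone.

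SWR1 (YDR334W, IV:1135932-1140476, on the Watson strand) encodes the ATPase that exchanges H2A for H2A.Z. Neither its promoter window, which is the whole intergenic space of 500 bp shared with the divergent gene RQC1, nor its downstream window held a DHS. In WT its coding region had 369 bp of DHS with 6 footprints, and in G170D 111 bp with 2. The WT list had IV:1138678-1138902, of 225 bp with 5 footprints, and IV:1138338-1138481, of 144 bp with 1 footprint. The G170D list had IV:1138707-1138817, of 111 bp, which lay wholly inside the first of these, and nothing over the second. All 3 regions were weak, at places 2696 and 2907 of 3155 in WT and 2515 of 2875 in G170D. With only the upper 3 quartiles of each list by score, SWR1 held 0 bp in both strains, so this difference rests on regions near the ends of the lists. One footprint inside the shared region coincided, at 2820 to 2831 bp after the coding start in WT and 2821 to 2830 bp in G170D.

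ARP6 (YLR085C, XII:300673-301989) encodes an actin-related protein that belongs to SWR1 and is needed for H2A.Z deposition. It had no DHS in any window, although its promoter window covers the start of the divergent gene SMC4, a condensin subunit, over 247 bp. The closest DHS to its coding start lay 4231 bp away in WT and 4187 bp away in G170D, at the far end of SMC4.

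ARP4 (YJL081C, X:283802-285271) encodes the actin-related protein shared by INO80, SWR1 and the histone acetyltransferase NuA4. It too had no DHS in any window. Of the 8 genes it lay farthest from a WT DHS, with 13326 bp from its coding start to a region over NET1, APQ13 and SMC3. In G170D the closest region, X:280967-281190, lay 4081 bp away at the start of IML2, was 224 bp wide and held 5 footprints. The median gene had 1018 bp from its coding start to the closest DHS in WT and 1149 bp in G170D, and in 90% of genes the distance was at most 4046 bp and 4509 bp.

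RVB1 (YDR190C, IV:840604-841995) and RVB2 (YPL235W, XVI:103232-104647) encode the paired ATPases present in both remodelers and in R2TP, and they differed from each other. Both are divergent from the gene upstream, RVB1 from HST4 across 341 bp and RVB2 from ENV7 across 529 bp. RVB1 had no DHS in any window, and its closest DHS, over MSS116, lay 3408 bp from the coding start in WT and 3522 bp in G170D.

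The RVB2 promoter window was covered over 434 bp in WT, with 7 footprints, and over 0 bp in G170D. The difference, G170D minus WT, was -234 bp in a window of 300 bp and -778 bp in a window of 1000 bp. The WT region XVI:102388-103165 was 778 bp wide with 12 footprints in all, ran from 844 to 67 bp upstream of RVB2, and thus spanned most of the space between the divergent genes and the start of ENV7, which encodes a vacuolar protein kinase. Its strongest footprint within the window, 27 bp wide and 181 to 155 bp upstream, had a score of -6.86 and place 5967 of 45019. Of the other 6 in the window, 3 had scores between -4.17 and -4.13, close to the list's weakest score of -4.06. A promoter window with at least 434 bp less DHS in G170D was found in 33 of 6002 genes, RVB2 included. Only windows with at least 434 bp of WT DHS can show this, and these were not counted. A promoter DHS of any length was listed in both strains in 1476 genes and in WT only in 423.

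The RVB2 downstream window, which covers part of VMA11, a gene for a subunit of the vacuolar ATPase, had 130 bp of DHS, in WT alone. It came from a weak region of 164 bp, XVI:105018-105181, with 1 footprint, at place 2529 of 3155. The strain difference in this window was 0 bp with windows of 300 bp, and also with the upper 3 quartiles of each list. In G170D no DHS was listed from XVI:98772 to XVI:117376, a stretch of 18605 bp in which WT had 1364 bp of DHS and 16 footprints. Of the 4 WT regions touching this stretch, 2 had no counterpart, and the other 2 lay across its ends. Such stretches were also long at genes without DHS in their windows. They were 17443 bp (ARP4), 14320 bp (RVB1), 9443 bp (ARP8) and 8923 bp (ARP6), with 37, 221, 0 and 38 bp of WT DHS. HSP82 (XVI:96496-98625), an Hsp90 gene, lies 4606 bp upstream of RVB2, and the G170D DHS closest to RVB2 was the one across its coding start, XVI:98410-98771. Whether this part of chromosome XVI was altered in making the G170D strain is not stated in the labels, and its part in the RVB2 difference was not tested.

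Counted over the 8 genes, a promoter DHS was present in both strains in 1 gene (ARP5), against 24.6% of all genes, in WT only in 1 (RVB2), against 7.05%, and in G170D only in 0, against 4.98%. The other 6 had none in either strain, as did 63.4% of all genes. With promoter windows of 300 bp, ARP5 too had a DHS in WT only. Coding regions held a DHS in both strains in 2 genes, against 35.2% of all genes, in WT only in 1, against 9.68%, in G170D only in 0, against 5.0%, and in neither strain in 5, against 50.1%. Downstream windows held one in both strains in 2 genes, against 34.5%, in WT only in 1, against 8.68%, and in G170D only in 0, against 4.73%. With 8 genes, 1 gene is 12.5% of the list, so these shares are coarse.

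In length covered, few genes carried large differences. The mean over the 8 promoter windows was 117 bp (WT) and 24.9 bp (G170D), against 98.5 and 89.6 bp over all genes, and the mean over the coding regions was 209 and 33.9 bp, against 189 and 147 bp. The median difference was 0 bp in each window, in the 8 genes and in all genes. Promoter windows had at least 100 bp less DHS in G170D in 2 of the 8 genes and in 9.28% of all genes, and coding regions in 2 of 8 and in 18.2%. Downstream windows had at least 100 bp less in 2 of 8, against 13.4%, and at least 100 bp more in 1 of 8, against 5.96%. The mean downstream lengths, 49.0 bp (WT) and 44.0 bp (G170D), lay under those of all genes, 146 and 126 bp. Coding regions of at least 4000 bp, such as those of INO80 and SWR1, held a DHS in WT only in 20 of 240 genes (8.33%) and in both strains in 130 (54.2%).

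In all, 10 WT DHS and 4 G170D DHS touched the windows of the 8 genes. All 4 of the G170D regions overlapped a WT region. In the whole G170D list 17.7% had no counterpart, so 4 regions are too few to be set apart from the list. Of the 10 WT regions, 6 had no counterpart, against 28.3% of the WT list. These 10 were weak members of the list, since 9 lay below its median score, and below that median 52.5% (exact 95% interval 49.97 to 54.96, counting error only) had no counterpart. All 6 without a counterpart were among the 9 regions below the median, so the share to set beside 52.5% is 6 of 9, a coarse one. By score quartile, 39.4% of the WT list had no counterpart in the third and 65.5% in the fourth.

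The widest of the 6 without a counterpart, in INO80 and at RVB2, both fell in the third score quartile of the WT list, at places 1865 and 2147 of 3155. Of all WT regions at least as wide as the 882-bp region in INO80, 8 of 919 (0.871%) had no counterpart, and of those at least as wide as the 778-bp region of RVB2, 15 of 1080 (1.39%). Most wide regions had high scores, however, with 661 of those of at least 700 bp in the first quartile and 439 in the second. Within the third quartile 14 of 89 regions of at least 700 bp (15.7%, exact 95% interval 8.875 to 24.98) had none.

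**Figure D3:**
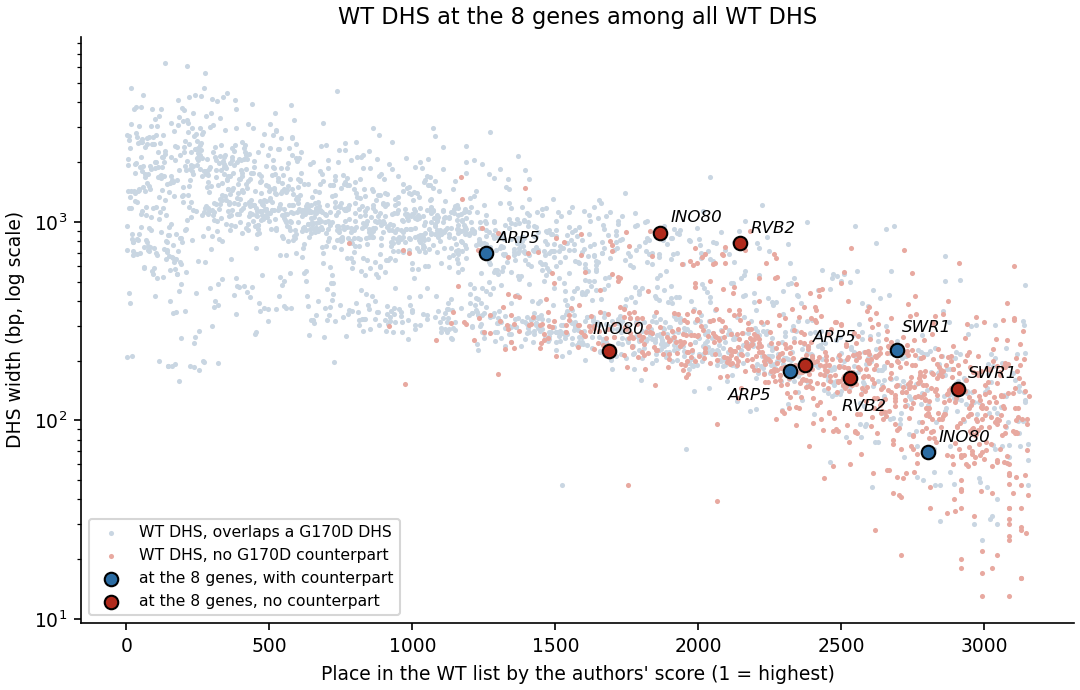
Each point is a DHS of the WT list, by its place in the list by the authors' score (horizontal axis, 1 is the highest score) and its width in bp (vertical axis, log scale). Large points are the 10 WT regions at the 8 genes, red where no G170D region overlaps them and blue where one does. The 882-bp region of INO80 and the 778-bp region of RVB2 lie at places 1865 and 2147, and the other 4 red points have widths from 144 to 223 bp.

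The windows of the 8 genes held 43 footprints in WT and 8 in G170D. Promoter windows held 15 and 3, coding regions 24 and 3, and downstream windows 4 and 2. Every footprint lay inside a DHS of its own list, so these counts depend on DHS length and are not a separate result. The summed DHS length of the 8 genes was 934 bp (WT) and 199 bp (G170D) in promoter windows. In coding regions it was 1674 and 271 bp. The footprint ratio of G170D to WT was 0.2 in promoter windows and 0.125 in coding regions, against 0.822 and 0.691 over all genes. Single genes carried much of this, since RVB2 gave 7 of the 15 WT promoter footprints and INO80 16 of the 24 in coding regions. Without RVB2 the promoter ratio was 0.375 (8 and 3 footprints), and without INO80 the coding ratio was 0.375 (8 and 3). Most of the WT footprints lay outside the G170D DHS: 7 of the 43 (16.3%) lay in length that G170D DHS also covered, against 79.7% of all WT footprints. Single genes carried this too, since the 16 in the INO80 coding region and the 8 at RVB2 lay in WT regions without a counterpart. The 79.7% covers regions of all scores, whereas 9 of the 10 WT regions here lay below the median score. Of the 7 footprints in shared length, 3 overlapped a G170D footprint, against 61.2% of all WT footprints in shared length. The 43 were 6 to 30 bp wide with a median of 13 bp, against 11 bp in the whole list.

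The other genes of the pathway were described in the same windows. The 20 genes were 8 further subunit genes of INO80, among them TAF14, whose product also serves in general transcription factors, 10 genes of SWR1, its shared subunits and its substrate H2A.Z, and the R2TP genes TAH1 and PIH1. A promoter DHS was present in both strains in 2 of the 20, against 24.6% of all genes, in WT only in 2, against 7.05%, and in G170D only in 2, against 4.98%. In neither strain was one present in 14, against 63.4%. A coding DHS was present in both strains in 2 (35.2% of all genes), in WT only in 1 (9.68%), in G170D only in 1 (5.0%) and in neither in 16 (50.1%). For downstream windows these counts were 4 (34.5%), 1 (8.68%), 2 (4.73%) and 13 (52.1%). The mean length over their promoter windows was 62.4 bp (WT) and 65.3 bp (G170D), against 98.5 and 89.6 bp over all genes.

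Among the INO80 subunit genes the strains differed in both directions. At TAF14 the WT window was covered over 500 bp with 9 footprints, and the G170D window over 0 bp. IES2 and IES4 had no promoter DHS in WT, and in G170D had 301 bp with 5 footprints and 153 bp with 2. The other 5, IES1, IES3, IES5, IES6 and NHP10, had no promoter DHS in either strain.

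In the SWR1 list, the promoter window of ACT1, which encodes actin, a subunit of both remodelers, had 224 bp with 4 footprints (WT) and 353 bp with 8 (G170D). The ACT1 coding region and downstream window held 99 and 59 bp in G170D and 0 bp in WT. VPS71, the gene of a SWR1 subunit, had its whole promoter window of 500 bp covered in both strains. Over its coding region the lengths were 843 bp (WT) and 136 bp (G170D). At least 100 bp less DHS in G170D was found in 18.2% of all coding regions. HTZ1 had no promoter or coding DHS, and its downstream window was covered over 482 bp (WT) and 424 bp (G170D). It was among 4 of the 10 genes of this list with a downstream DHS in both strains. VPS71 and HTZ1 were named after their values were seen. Of the R2TP genes, PIH1 had 23 bp in its promoter window, in WT alone, and TAH1 had no DHS in any window.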

How the data were processed

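DHS-Seq lists from 1 WT and 1 G170D library were used, sequenced for 101 cycles per the labels' protocols. Per the submitters' processing notes, sacCer3, FastQC and Bowtie 0.12.8 were used. The names of the deposited footprint lists refer to dnase2tf. The DHS caller, its threshold and the score formulas are not stated in the labels. The deposited score of each DHS and footprint was used only to rank regions within a list, and 2 (WT) and 3 (G170D) footprint scores were infinite and ranked strongest.

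Coordinates were counted from 1, in sacCer3, which is assembly R64, the build of the gene table. Strand was read from systematic names. A DHS counted with at least 1 bp in a window, and a footprint by its midpoint. Regions of both strains were counterparts when they shared at least 1 bp. Python 3.11.15, numpy 2.4.6, pandas 2.3.3, scipy 1.17.1 and matplotlib 3.10.9 were used. Covered lengths were checked against direct counts on a copy of the WT list with DHS removed at random. Promoter footprint counts were checked against direct counts on the WT list. Genes named by plan were the 8 genes, their neighbours, and pathway genes with a promoter DHS in one strain only or a promoter difference of at least 100 bp. Named beyond that plan were VPS71 and HTZ1, and IES1, IES3, IES5, IES6, NHP10 and TAH1, which had no promoter DHS. The genes, lists and alternatives were chosen with earlier results of these data known. A planned motif search was left out for want of a genome sequence. Sequencing depth is unknown, and intervals cover counting error only.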

Additional observations from a re-analysis of the deposited data

How the results depend on the processing

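The 21 summary values were recomputed under those of 6 other settings that apply to each, 91 times in all, and 73 of the 91 stayed within 1.5 times the reported value and on its side of 0. With windows of 300 bp, 0 of the 8 genes had a promoter DHS in G170D, 2 had one in WT only, promoter footprints in G170D were 0, downstream footprints were 2 in WT and 1 in G170D, and 0 downstream windows had a DHS in WT only. With windows of 1000 bp, promoter footprints in WT were 28, downstream footprints in G170D were 10, and the mean promoter difference was -145 bp. With the upper 3 quartiles of each list, promoter and coding footprints in G170D were 1 each, 1 coding region had a DHS in G170D, and downstream windows had one in WT in 1 gene, in WT only in 0 and in G170D only in 1. The mean downstream difference of -5.0 bp turned to 8.0 bp with 300 bp, 40.1 bp with 1000 bp and 41.6 bp with the upper quartiles. The ARP5 downstream difference of -130 bp turned to 44.0 bp with 300 bp and with the upper quartiles. These windows and lists hold other regions by construction. The minimum of 50 bp could change no value, since the shortest length above 0 was 63 bp, in the ARP5 downstream window in G170D. Among the 73 are values of 0 that stayed 0. With lists of the same number, a minimum of 50 bp, or footprints counted by 1 bp, every summary value stayed within 1.5 times. Lists of the same number reached that limit, however. WT footprints fell from 15 to 10 in promoter windows and from 24 to 16 in coding regions, while G170D stayed at 3 and 3. The SWR1 coding difference went from -258 to -114 bp in that setting. The footprint ratios without RVB2 (promoter) and without INO80 (coding), both 0.375, were added after seeing the data. No paired analysis was possible because each strain had 1 library. Depth is unknown, so list length and chromatin cannot be told apart.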

Other observations

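ENV7 shared the WT region upstream of RVB2, and the end of YNL058C the regions upstream of ARP5. The other neighbouring regions given here, at the YNL058C promoter, IML2 and SMC4, lie outside the windows of the 8 genes. The ENV7 promoter window, divergent from RVB2, had 463 bp with 8 footprints and its coding region 315 bp, all in WT alone. YNL058C, next to ARP5, had its promoter window covered over 500 bp with 6 footprints in WT and over 0 bp in G170D, while the window after its coding end, towards ARP5, held 326 and 325 bp. IML2, convergent with ARP4, held 0 bp in its promoter window in WT and 218 bp with 5 footprints in G170D. The window after the end of SMC4, the gene divergent from ARP6, held 83 bp in WT and 473 bp with 9 footprints in G170D. These neighbours were chosen for description after their values were seen, so they do not stand for all neighbours.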
